A study of Mus musculus with 12 samples.

Results

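The ATF4 arm of the integrated stress response was followed through 10 genes in the mouse heart: Atf4, Atf5, Ddit3, Eif2ak3, Ppp1r15a, Asns, Psat1, Phgdh, Trib3 and Sesn2. They were chosen by name, as the regulators and targets that usually stand for this pathway, with earlier results of these data known. All 10 were among the 13552 genes of the expression table, and 9 of them were among the 11240 genes that reached 1 RPKM (a read count divided by exon length and by library depth) in at least 3 mice and were tested. The exception was Phgdh, which stayed under 1 RPKM in every mouse.

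RNA of hearts was sequenced 9 h after transverse aortic constriction (TAC), a surgical narrowing of the aorta that raises the pressure load on the left ventricle, or after sham surgery. The 12 mice formed 4 groups of 3, namely wild-type (WT) sham, WT TAC, knock-in (KI) sham and KI TAC, and the study asked how the knock-in alters the early response of the heart to pressure overload. KI mice were homozygous for Bcl-xL Ser14Ala, a point mutation carried in every cell of the body that replaces a phosphorylated serine of the survival protein Bcl-xL with alanine. All mice were young adult males, of strain C57BL/6 in the labels and C57BL/6J in the study's methods, and received the same anaesthesia. WT mice were purchased, and nothing says that they were littermates of the KI line, so a difference between the colonies cannot be told apart from the mutation. Each value came from a separate mouse. In bulk RNA, fewer cells of one type and less RNA per cell cannot be told apart.

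In the integrated stress response, several kinases phosphorylate the translation initiation factor eIF2 when cells meet misfolded protein, lack of amino acids, lack of haem, mitochondrial stress or viral RNA. Protein synthesis as a whole then falls, while the transcription factor ATF4 is translated more efficiently because of the small reading frames ahead of its coding sequence. ATF4 turns on genes of amino acid synthesis and transport, the transcription factors CHOP (Ddit3) and ATF5, and feedback inhibitors, among them GADD34 (Ppp1r15a), which returns the phosphatase to eIF2. RNA sequencing reads the transcripts of these genes and not the phosphorylation of eIF2 or the amount of ATF4 protein.

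ATF4 binds with C/EBP partners to the C/EBP-ATF response element, with the core TGATGNAA, and related factors bind the cAMP response element, TGACGTCA. Both were searched on both strands of the RefSeq promoter windows of GRCm38.p6, each from 250 bases before to 50 bases after a transcription start, and the 10 genes had 12 such windows. The first core was found in Asns and Trib3 and the second in Ppp1r15a, and neither was found in the windows of the other 7 genes. For comparison, 3.97% of all 32851 windows held the first motif and 1.79% the second, or 2.22% and 2.93% of the 11174 windows of tested genes. Shown here are the 100 bases before the start of the 4 genes that passed the test in at least 1 comparison, and a shorter stretch around the match in Trib3, all written in the direction of transcription, with the motif in capitals. They lie at chr15:80255084-80255183 on the plus strand for Atf4 and, on the minus strand, at chr7:45526269-45526368 for Ppp1r15a, chr6:7693210-7693309 for Asns, chr19:15925060-15925159 for Psat1 (the outermost of its RefSeq starts) and chr2:152344033-152344052 for Trib3.
Atf4: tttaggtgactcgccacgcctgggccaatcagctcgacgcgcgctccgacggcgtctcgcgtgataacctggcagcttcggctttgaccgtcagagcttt
Ppp1r15a: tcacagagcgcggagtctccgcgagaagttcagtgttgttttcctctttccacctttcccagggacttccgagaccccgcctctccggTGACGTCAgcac
Asns: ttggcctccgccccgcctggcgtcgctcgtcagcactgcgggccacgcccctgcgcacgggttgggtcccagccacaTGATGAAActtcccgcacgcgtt
Psat1: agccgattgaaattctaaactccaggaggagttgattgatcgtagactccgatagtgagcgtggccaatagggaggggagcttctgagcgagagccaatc
Trib3: tcaggtTTACATCAgccggg
The match in Asns ran from base -23 to -16 and that in Ppp1r15a from -12 to -5, counted from the start. The match in Trib3 was on the opposite strand, at bases 15 to 22 counted from the RefSeq transcription start, and so after it. A match describes letters in a window and is not a measured binding site.

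**Figure D1:**
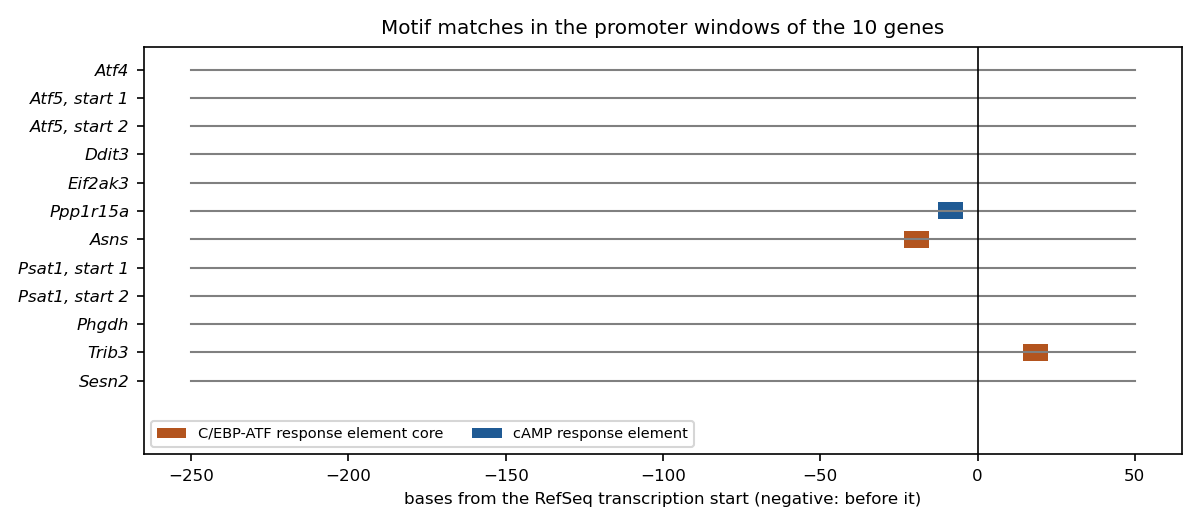
Motif matches in the RefSeq promoter windows of the 10 genes. The horizontal axis is the distance in bases from the transcription start, each grey line is 1 window, and coloured boxes mark a C/EBP-ATF response element core (Asns, Trib3) or a cAMP response element (Ppp1r15a).

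The libraries held 23650042 to 32455810 reads on genes. Mitochondrial genes took 6.36% of them in WT sham mouse 1 and 9.76% to 12.5% in the other mice. All 6 cardiomyocyte markers were present, at a summed level of 11409 to 21785 RPKM, as the label heart would have it, whereas 0 of 6 lymphocyte and 0 of 4 adipocyte markers were among the genes analysed. Bcl2l1, which encodes Bcl-xL, was at 7.04, 14.2 and 15.4 RPKM in WT sham mice, 7.50, 17.2 and 6.59 in WT TAC mice, 6.67, 19.1 and 16.0 in KI sham mice and 35.8, 37.0 and 24.5 in KI TAC mice. Because the knock-in is a point mutation, these levels do not check the genotype labels.

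After TAC, the transcripts of 2 of the 9 tested genes rose in WT hearts and those of 4 rose in KI hearts. Psat1 and Asns, enzymes of amino acid synthesis, rose in both genotypes, while Atf4 itself and its feedback regulator Ppp1r15a rose in KI hearts, by 3.76-fold and 6.11-fold in mean RPKM. In WT hearts Atf4 was 1.56-fold and Ppp1r15a 1.91-fold higher after TAC, without passing the test. Between the TAC groups, Atf4 was 2.25-fold and Ppp1r15a 3.49-fold higher in KI hearts. The test of whether TAC acted differently in the genotypes, given below, called neither gene. Calls of Asns in WT hearts and of Atf4 between the TAC groups were lost under some alternative settings of the analysis. Ddit3, Atf5, Trib3, Sesn2 and Eif2ak3 passed the test in no comparison. Calls rest on limma fitted to log2(RPKM + 1) in all 12 mice, at a Benjamini-Hochberg adjusted p under 0.05 over all genes tested. The scale of log2(RPKM + 1) understates the change of genes near or below 1 RPKM, and therefore the ratio of mean RPKM is given as well.

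These counts stand beside the following background. In WT TAC against WT sham, 2 members were higher and 0 lower, and 6.96% of all tested genes were higher and 4.6% lower. In KI TAC against KI sham, 4 members were higher and 0 lower, beside 8.57% and 14.7% of all genes. In KI TAC against WT TAC, 2 members were higher and 0 lower, beside 2.92% and 8.13%. These shares depend on the mice included, since the number of genes called changed widely over left-out mice, as given below. Asns and Psat1 were at 1 RPKM or more in 0 of 6 sham mice, so they entered the test through the TAC hearts alone, and the counts of members that include them are a description only. Their calls in WT and in KI hearts were also made when no filter on low values was used and when at least 10 reads in every mouse were required.

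**Figure D2:**
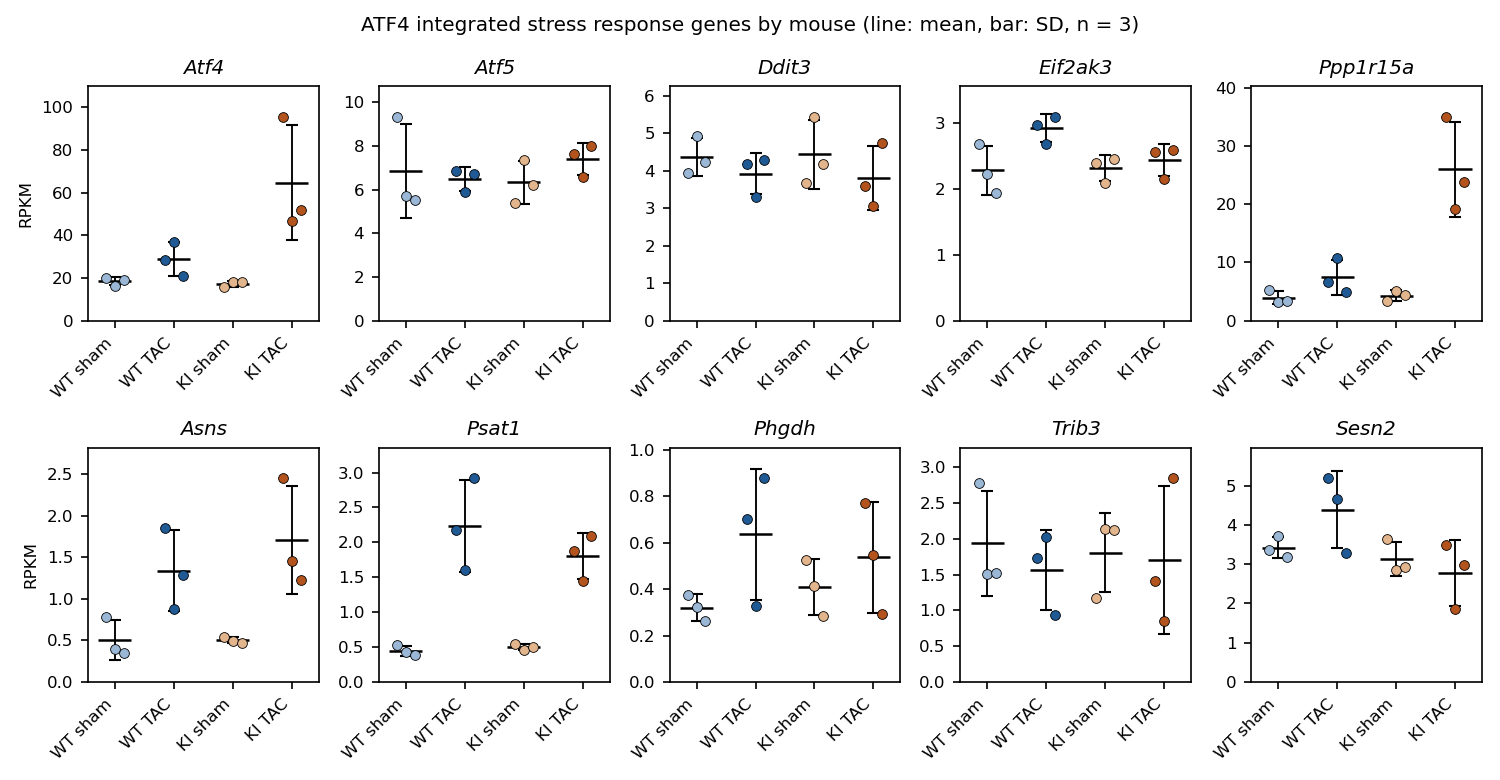
RPKM of the 10 genes in each of the 12 mice, on linear axes that start at 0 and differ between genes. Points are mice, horizontal lines the mean of a group and bars its SD (n = 3); the KI TAC mice stand above all others for Atf4 (46.9 to 95.7 RPKM) and Ppp1r15a (19.2 to 35.1 RPKM), and the TAC mice of both genotypes above all sham mice for Psat1 and Asns.

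Atf4, the transcription factor at the centre of the pathway, had the highest mean level in RPKM of the 10 genes in every group. Its levels were 20.0, 16.4 and 18.9 RPKM in WT sham mice 1, 2 and 3, and 15.7, 18.0 and 18.0 in KI sham mice 1, 2 and 3. After TAC they were 28.5, 36.8 and 21.0 RPKM in WT mice 7, 9 and 10, and 95.7, 46.9 and 51.7 in KI mice 5, 6 and 7. The groups ordered themselves as KI TAC over WT TAC over both sham groups, without overlap between KI TAC and WT TAC or between TAC and sham of either genotype, although WT TAC mouse 10 lay close to the highest sham mouse. The mean was 64.8 ± 26.9 RPKM in KI TAC against 17.2 ± 1.35 in KI sham hearts (SD, n = 3), a log2 difference of 1.78 (SE 0.26, limma adjusted p = 0.000461). In WT hearts it was 28.8 ± 7.90 in TAC against 18.5 ± 1.83 in sham, a 1.56-fold ratio, and the log2 difference of 0.58 (SE 0.26) did not pass, with a limma adjusted p of 0.158. KI TAC exceeded WT TAC by a log2 difference of 1.10 (SE 0.26, limma adjusted p = 0.0208). This last call was lost in the fit of those groups alone (adjusted p = 0.0832) and without WT TAC mouse 7 (0.0858), WT TAC mouse 10 (0.0592) or KI TAC mouse 5 (0.0546).

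Ppp1r15a encodes GADD34, the inducible subunit that directs protein phosphatase 1 to eIF2 and so closes the loop of the response. Of the 9 tested genes it had the largest rise in KI hearts and the largest difference between the TAC groups. Sham levels were 5.23, 3.22 and 3.29 RPKM in WT mice 1, 2 and 3 and 3.29, 5.14 and 4.39 in KI mice 1, 2 and 3. TAC levels were 6.63, 10.8 and 4.98 RPKM in WT mice 7, 9 and 10 and 35.1, 19.2 and 23.9 in KI mice 5, 6 and 7. Every KI TAC mouse was above every other mouse, whereas WT TAC mouse 10 lay below the highest WT sham mouse, so the WT groups overlapped. The rise in KI hearts was 2.33 on the log2 scale (SE 0.27, limma adjusted p = 0.000121), from 4.27 ± 0.933 to 26.1 ± 8.16 RPKM. In WT hearts the log2 difference was 0.75 (SE 0.27, limma adjusted p = 0.0899), a 1.91-fold ratio, which passed only without WT TAC mouse 10 (0.97, adjusted p = 0.0362). KI TAC exceeded WT TAC by 1.69 (SE 0.27, limma adjusted p = 0.00549), and this call was made under all 13 alternatives of scaling, filter, pseudocount, fit and left-out mouse.

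Eif2ak3 encodes PERK, the eIF2 kinase of the endoplasmic reticulum. It stood at 1.93 to 2.67 RPKM in WT sham, 2.68 to 3.09 in WT TAC, 2.08 to 2.45 in KI sham and 2.15 to 2.59 in KI TAC mice. All 3 WT TAC mice were above all WT sham mice, by a narrow margin, and above all KI TAC mice. The log2 difference was 0.26 in WT hearts (95% interval -0.03 to 0.56, limma adjusted p = 0.222) and 0.05 in KI hearts (-0.24 to 0.34, adjusted p = 0.814).

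Ddit3 and Atf5, the members that are transcription factors downstream of ATF4, stayed within a narrow range. Atf3, which is not a member, did not, and is given below with the partners and effectors of ATF4. Ddit3 encodes CHOP, which is known for its part in cell death under prolonged stress. Its levels were 3.94, 4.91 and 4.23 RPKM in WT sham mice 1, 2 and 3, 4.18, 3.29 and 4.29 in WT TAC mice 7, 9 and 10, 3.68, 5.44 and 4.17 in KI sham mice 1, 2 and 3, and 3.60, 3.06 and 4.74 in KI TAC mice 5, 6 and 7. All 4 groups overlapped. The log2 difference between TAC and sham was -0.13 in WT hearts (95% interval -0.50 to 0.25) and -0.18 in KI hearts (-0.56 to 0.20), with limma adjusted p of 0.677 and 0.492. Within the KI TAC group, mouse 5, with the highest Atf4, had a Ddit3 level between those of mice 6 and 7. Atf5, a relative of ATF4 that is controlled in a similar way, lay between 5.40 and 9.35 RPKM in all 12 mice. Its highest value was that of WT sham mouse 1. The log2 difference was -0.04 in WT (95% interval -0.45 to 0.37, limma adjusted p = 0.918) and 0.20 in KI hearts (-0.21 to 0.61, adjusted p = 0.472). For both genes the intervals exclude a change as large as that of Atf4 in KI hearts.

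**Figure D3:**
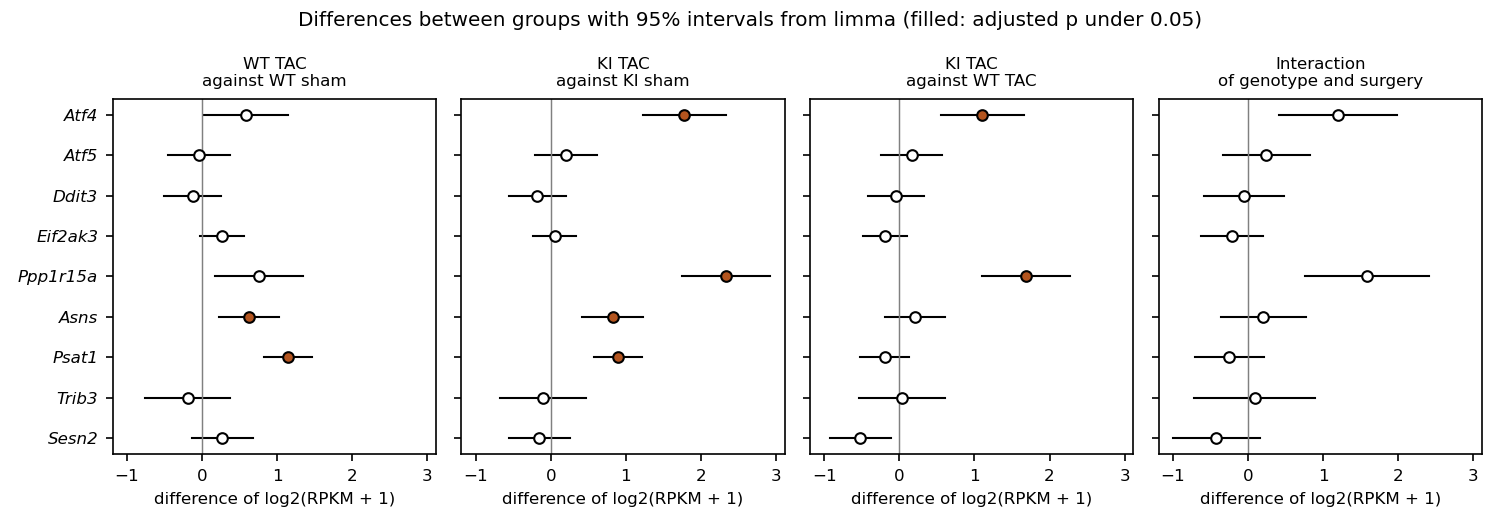
Difference of log2(RPKM + 1) for the 9 tested genes in 4 comparisons, with 95% intervals from limma; filled points have an adjusted p under 0.05. Atf4 and Ppp1r15a are filled in KI TAC against KI sham (1.78 and 2.33) and in KI TAC against WT TAC (1.10 and 1.69), and Asns and Psat1 in both comparisons of TAC with sham.

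Of the 3 enzymes of amino acid synthesis, Psat1 and Asns rose in both genotypes, from low levels, the call of Asns in WT hearts being lost under several alternatives, and Phgdh passed in neither. Psat1 encodes phosphoserine aminotransferase, the enzyme of serine synthesis that follows the step of Phgdh. It was at 0.527, 0.437 and 0.385 RPKM in WT sham mice 1, 2 and 3 and at 2.18, 1.61 and 2.92 in WT TAC mice 7, 9 and 10. In KI mice it was at 0.548, 0.452 and 0.500 RPKM after sham surgery and at 1.88, 1.44 and 2.09 after TAC. No TAC mouse overlapped a sham mouse, and the ranges of the TAC groups overlapped each other. The ratio of means was 4.98 in WT hearts (log2 difference 1.14, SE 0.15, limma adjusted p = 0.000484) and 3.60 in KI hearts (0.89, SE 0.15, adjusted p = 0.00118). Behind these values were 40 to 72 reads per mouse in WT sham hearts and 203 to 325 in WT TAC hearts. With a pseudocount of 0.1 the log2 differences were 2.06 in WT and 1.65 in KI hearts. KI TAC against WT TAC gave -0.20 (95% interval -0.52 to 0.13, limma adjusted p = 0.396).

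Asns encodes asparagine synthetase, and its promoter holds the ATF core shown above. Its levels were 0.785, 0.402 and 0.344 RPKM in WT sham mice 1, 2 and 3, 1.85, 0.877 and 1.29 in WT TAC mice 7, 9 and 10, 0.539, 0.497 and 0.473 in KI sham mice 1, 2 and 3, and 2.45, 1.45 and 1.22 in KI TAC mice 5, 6 and 7. Again no TAC mouse overlapped a sham mouse of its genotype, but WT TAC mouse 9 exceeded WT sham mouse 1 only slightly. The rise in KI hearts was 3.40-fold (log2 difference 0.82, SE 0.19, limma adjusted p = 0.00666) and was called under all 13 alternatives. That in WT hearts was 2.62-fold (0.62, SE 0.19, limma adjusted p = 0.0462) and was called under 6 of 13. It was lost with quantile normalization (0.53, adjusted p = 0.0997), with median-ratio scaling (0.60, 0.0698), in the fit of those groups alone (0.0629), and without WT sham mouse 2 (0.133), WT sham mouse 3 (0.151), WT TAC mouse 7 (0.194) or WT TAC mouse 10 (0.0661). With a pseudocount of 0.1 the log2 differences were 1.25 in WT and 1.53 in KI hearts. KI TAC and WT TAC overlapped, with a log2 difference of 0.21 (95% interval -0.19 to 0.61, limma adjusted p = 0.478).

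Phgdh encodes phosphoglycerate dehydrogenase, the first enzyme of serine synthesis, and had 16 to 58 reads per mouse. It was at 0.376, 0.323 and 0.263 RPKM in WT sham mice 1, 2 and 3, 0.704, 0.326 and 0.878 in WT TAC mice 7, 9 and 10, 0.527, 0.413 and 0.285 in KI sham mice 1, 2 and 3, and 0.770, 0.546 and 0.293 in KI TAC mice 5, 6 and 7. WT TAC mice 7 and 10 were above all 3 WT sham mice, and mouse 9 was not. In a fit with no filter on low values, the log2 difference was 0.29 in WT hearts (limma adjusted p = 0.178) and 0.12 in KI hearts (adjusted p = 0.561).

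Trib3 and Sesn2, inhibitors of growth and stress signalling, passed in no comparison. Trib3 encodes a pseudokinase that restrains ATF4 and AKT, and its window holds the ATF core. It ranged from 1.51 to 2.78 RPKM in WT sham, 0.937 to 2.02 in WT TAC, 1.17 to 2.14 in KI sham and 0.847 to 2.85 in KI TAC mice. The highest and the lowest of the 12 values were both in KI TAC mice, 7 and 6. Log2 differences between TAC and sham were -0.19 in WT (95% interval -0.76 to 0.38, limma adjusted p = 0.671) and -0.10 in KI hearts (-0.67 to 0.47, adjusted p = 0.81), the widest intervals of the transcripts that stayed uncalled throughout.

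Sesn2 encodes sestrin 2, a leucine sensor that restrains mTORC1. It was at 3.35, 3.72 and 3.19 RPKM in WT sham mice 1, 2 and 3, 5.19, 4.66 and 3.29 in WT TAC mice 7, 9 and 10, 3.63, 2.85 and 2.93 in KI sham mice 1, 2 and 3, and 3.49, 1.85 and 2.99 in KI TAC mice 5, 6 and 7. WT TAC mice 7 and 9 were above every other mouse and KI TAC mouse 6 was the lowest. Against WT TAC, KI TAC gave a log2 difference of -0.52 (SE 0.19, unadjusted p = 0.0159, limma adjusted p = 0.0872), opposite in sign to those of Atf4 and Ppp1r15a in the same comparison.

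The sham-operated hearts of the genotypes were compared to ask whether the knock-in altered the pathway without pressure overload. In KI sham against WT sham, limma called 0 of 9 members, beside 0.0178% of all genes higher (2 of 11240) and 0% lower. At an unadjusted p under 0.05 there were 0 members and 37 genes, and limma-voom on the reads recovered from the values called 0 members and 2 genes. Log2 differences of the members lay between -0.10 (Sesn2) and 0.11 (Ppp1r15a), with 95% intervals of -0.51 to 0.31 and -0.48 to 0.70. For Atf4 the difference was -0.09 (95% interval -0.65 to 0.46).

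Whether TAC acted differently in the genotypes was tested by the interaction of genotype and surgery, that is, the log2 difference in KI minus that in WT hearts. Limma called 0 members and 0% of all genes in either direction, and limma-voom likewise 0 of both, while 1668 genes and 2 members were at an unadjusted p under 0.05. Those members were Ppp1r15a, at 1.58 (95% interval 0.75 to 2.41, unadjusted p = 0.0011, limma adjusted p = 0.132), and Atf4, at 1.19 (0.41 to 1.98, unadjusted p = 0.00566, adjusted p = 0.182). Ppp1r15a passed without WT TAC mouse 9 (1.85, adjusted p = 0.0241), and its adjusted p ranged from 0.0241 to 0.325 over 18 alternatives. The rise of Atf4 and Ppp1r15a in KI hearts is therefore not shown to differ from the change in WT hearts at the threshold used. The remaining members had interactions from -0.42 (Sesn2) to 0.24 (Atf5).

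As a group, the 9 tested genes had a median log2 difference of 0.27 in WT TAC against WT sham, where the median of all genes was 0.04. Since Asns and Psat1 were tested only for their TAC levels, these medians too are a description. In KI TAC against KI sham it was 0.20 beside -0.10 for all genes, and in KI TAC against WT TAC 0.03 beside -0.12. With quantile normalization or median-ratio scaling the medians of all genes lay between -0.02 and 0.01 in these comparisons, and the calls of Atf4, Ppp1r15a and Psat1 were made under both scalings. Of the genes called, 60.2% were higher in WT TAC against sham (48.1% after quantile normalization, 51.1% after median-ratio scaling), 36.8% in KI TAC against sham (48.3%, 51.5%) and 26.4% in KI TAC against WT TAC (46%, 51.6%).

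The members did not vary alike from mouse to mouse. Over the 12 mice, Pearson's r of log2(RPKM + 1) with Atf4 was 0.98 for Ppp1r15a, 0.82 for Asns, 0.64 for Psat1, 0.37 for Atf5, 0.20 for Eif2ak3, -0.03 for Trib3, -0.10 for Sesn2 and -0.44 for Ddit3, as a description of mice that differ in group. Among all tested genes that were not members, the patterns nearest to Atf4 were those of Sdc4, Zc3h12a, Srxn1, Zfp593 and Maff, each with an r of 0.98 over 12 mice. Srxn1, for sulfiredoxin of the oxidant response, ran from 8.92 to 9.40 RPKM in WT sham, 13.3 to 24.2 in WT TAC, 8.75 to 9.89 in KI sham and 26.5 to 70.2 in KI TAC mice. Maff, a small Maf transcription factor, ran from 5.38 to 5.98, 6.64 to 19.8, 5.30 to 7.59 and 18.0 to 63.6 RPKM in the same order. KI TAC and WT TAC mice did not overlap in Srxn1 and overlapped in Maff. The genes nearest to the mean of the 9 standardized members were Pgs1, Rcc1, Ddx39b, Wsb2 and Sf3b4, with r from 0.93 to 0.95.

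Within the TAC groups the members fell into different orders. In WT TAC hearts, Atf4 and Ppp1r15a were highest in mouse 9 and lowest in mouse 10, whereas Psat1 and Phgdh were highest in mouse 10 and lowest in mouse 9. In KI TAC hearts, Atf4, Ppp1r15a, Asns and Phgdh were all highest in mouse 5. Summed markers of cell types also differed between these mice. Of 6 neutrophil markers, S100a8, S100a9 and Csf3r were in the table, and their sum was 0.395 to 1.27 RPKM in the 6 sham mice, 5.37, 9.87 and 3.69 in WT TAC mice 7, 9 and 10, and 20.3, 11.3 and 4.18 in KI TAC mice 5, 6 and 7. In each TAC group it was highest in the mouse with the most Atf4 and Ppp1r15a, but KI TAC mice 6 and 7 stood in the opposite order to both genes. The sum of 6 cardiomyocyte markers was 16111, 11409 and 21785 RPKM in WT TAC mice 7, 9 and 10 and 13301, 18842 and 14354 in KI TAC mice 5, 6 and 7, with sham mice at 12672 to 17158. That is the reverse of the order of Atf4 in both groups, but 1 gene, Actc1, made up 67.2% to 87.8% of the sum in these mice. Without Actc1 the sum was 2075, 3296 and 2650 RPKM in WT TAC and 3227, 5185 and 4707 in KI TAC mice, so that within WT TAC it was highest in mouse 9, the mouse of that group with the most Atf4, while within KI TAC it still ran in the reverse order of Atf4. Of 6 fibroblast markers, all in the table, the sum was 271, 134 and 610 RPKM in WT TAC mice 7, 9 and 10 and 92.2, 106 and 168 in KI TAC mice 5, 6 and 7, and was thus highest in WT TAC mouse 10, with the most Psat1. Col1a1 made up 40.7% to 75.6% of it, and without Col1a1 the sum was 82.8, 67.0 and 149 RPKM in WT TAC mice 7, 9 and 10. The sum of 6 macrophage markers was 65.7, 51.9 and 98.8 RPKM in WT TAC and 45.2 to 57.0 in KI TAC mice, beside 39.8 to 52.2 in sham mice. The sum of 5 erythroid markers was 82.8, 114 and 74.8 RPKM in WT TAC mice 7, 9 and 10, below all 6 sham mice (134 to 244) and highest in mouse 9 as Atf4 was. In KI TAC mice 5, 6 and 7 it was 97.7, 124 and 257, lowest in the mouse with the most Atf4.

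Single markers passed the limma test as well, in the comparisons where members rose. In WT TAC against sham, 2 of 3 neutrophil markers (S100a9 and Csf3r), 3 of 6 macrophage markers (Cd68, Adgre1 and Fcgr1) and 2 of 5 markers of smooth muscle cells and pericytes (Cspg4 and Cnn1) were higher and 1 of 6 cardiomyocyte markers (Myh6) lower, beside 6.96% of all genes higher and 4.6% lower. After TAC in KI hearts, 3 of 3 neutrophil markers were higher and Pln of the cardiomyocyte, Lum of the fibroblast and Csf1r of the macrophage list lower, beside 8.57% and 14.7%. Between the TAC groups, Csf1r, Adgre1, Fcgr1, Cspg4 and Cnn1 were lower and Tnni3, of the cardiomyocyte list, higher in KI hearts, beside 8.13% and 2.92%, and 0 of 3 neutrophil and 0 of 6 fibroblast markers passed. All 3 neutrophil markers, Fcgr1 and Cnn1 were at 1 RPKM or more in 0 of 6 sham mice and entered the test through TAC hearts alone, so the counts that hold them are a description. The part of these cells in the results was not tested.

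Genes around the members were read from 6 lists, whose counts stand beside the shares of all tested genes that were higher and lower, 6.96% and 4.6% in WT TAC against sham, 8.57% and 14.7% in KI TAC against sham, and 2.92% and 8.13% in KI TAC against WT TAC. Of 12 genes for eIF2 kinases, eIF2, its exchange factor and its constitutive phosphatase subunit, 1 rose in WT TAC hearts, namely Eif2s1, the subunit of eIF2 that is phosphorylated, by 0.56 on the log2 scale (limma adjusted p = 0.029), a share near that of all genes. None of the 12 passed in KI TAC against KI sham or in KI TAC against WT TAC, where their medians were 0.13 and 0.01.

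Of 13 partners and stress effectors of ATF4 tested, 1 rose and 3 fell in WT hearts, and 2 rose and 2 fell in KI hearts. In WT hearts the largest were Gdf15, a stress cytokine, at 2.47 (limma adjusted p = 0.037), Ddit4, an inhibitor of mTORC1, at -1.40 (0.0497), and Chac1, which degrades glutathione, at -1.39 (0.0174). Thus Chac1, often used as a marker of ATF4 activity, fell from 10.5 ± 3.92 to 3.24 ± 0.607 RPKM. In KI hearts they were Atf3, a transcription factor of the same family, at 4.58 (limma adjusted p = 0.00109), Chac1 at -1.56 (0.00522) and Vldlr, a lipoprotein receptor, at -0.98 (0.0037). Atf3 varied widely between KI TAC mice, with a mean of 218 ± 284 RPKM against 3.71 ± 1.48 in KI sham mice. KI TAC exceeded WT TAC in Atf3 by 3.09 (limma adjusted p = 0.0245), in Ddit4 by 1.94 (0.0169) and in Nupr1, a stress-induced cofactor, by 0.59 (0.0427), and none of the 13 was lower. Nupr1 was at 1 RPKM or more in 5 mice, of which 1 was among the 6 sham mice, so it passed the filter through the TAC hearts. Its calls and the counts that hold it are therefore a description.

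Amino acid transporters were the list with the highest median in both genotypes, 0.72 in WT and 0.84 in KI hearts, and 3 of 6 rose in each, with none lower. Slc38a2, which carries small neutral amino acids, rose from 20.8 ± 2.69 to 67.2 ± 19.1 RPKM in WT hearts (log2 difference 1.62, limma adjusted p = 0.00268) and from 25.7 ± 11.1 to 77.8 ± 10.7 in KI hearts (1.63, adjusted p = 0.00114). Slc7a5, the light chain of the large neutral amino acid transporter, rose by 1.42 (adjusted p = 0.00688) and 1.21 (0.00827). The third was Slc1a4, a carrier of alanine and serine, in WT hearts (0.92, limma adjusted p = 0.00176), and Slc3a2, the heavy chain that pairs with Slc7a5, in KI hearts (1.23, adjusted p = 0.0033). In KI TAC against WT TAC 1 of 6 passed, Slc1a4, which was lower by a log2 difference of -0.51 (limma adjusted p = 0.0415). Slc1a4 was at 1 RPKM or more in 1 of 6 sham mice, so it passed the filter through the TAC hearts. The counts and medians that hold it are therefore a description.

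Of 8 further genes of amino acid synthesis and one-carbon metabolism tested, 2 rose and 1 fell in WT hearts and 1 rose and 1 fell in KI hearts. Mthfd2, a mitochondrial folate enzyme, rose in both (0.73, limma adjusted p = 0.016, and 0.85, adjusted p = 0.00392), from sham levels under 1 RPKM in all 6 sham mice, so that it too was tested through the TAC hearts alone and its count is a description. Gpt2, a mitochondrial alanine aminotransferase, fell in both (-1.62, limma adjusted p = 0.000745, and -1.19, adjusted p = 0.00265). Aldh18a1, of proline synthesis, rose in WT hearts (0.91, limma adjusted p = 0.0132) and stood lower in KI hearts when the TAC groups were compared (-0.78, limma adjusted p = 0.031).

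Of 12 aminoacyl-tRNA synthetases, which load tRNAs with amino acids and include known ATF4 targets, 0 passed in WT hearts and 2 rose in KI hearts, Nars by 0.79 (limma adjusted p = 0.00674) and Tars by 0.66 (adjusted p = 0.00322), beside 8.57% of all genes higher there. Of 6 genes of the mitochondrial stress relay, Dele1, which carries the mitochondrial signal to an eIF2 kinase, fell in WT (-0.93, limma adjusted p = 0.00556) and in KI hearts (-0.61, adjusted p = 0.0265). None of these 18 genes passed in KI TAC against WT TAC. No gene of the 6 lists passed in KI sham against WT sham or in the interaction.

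**Figure D4:**
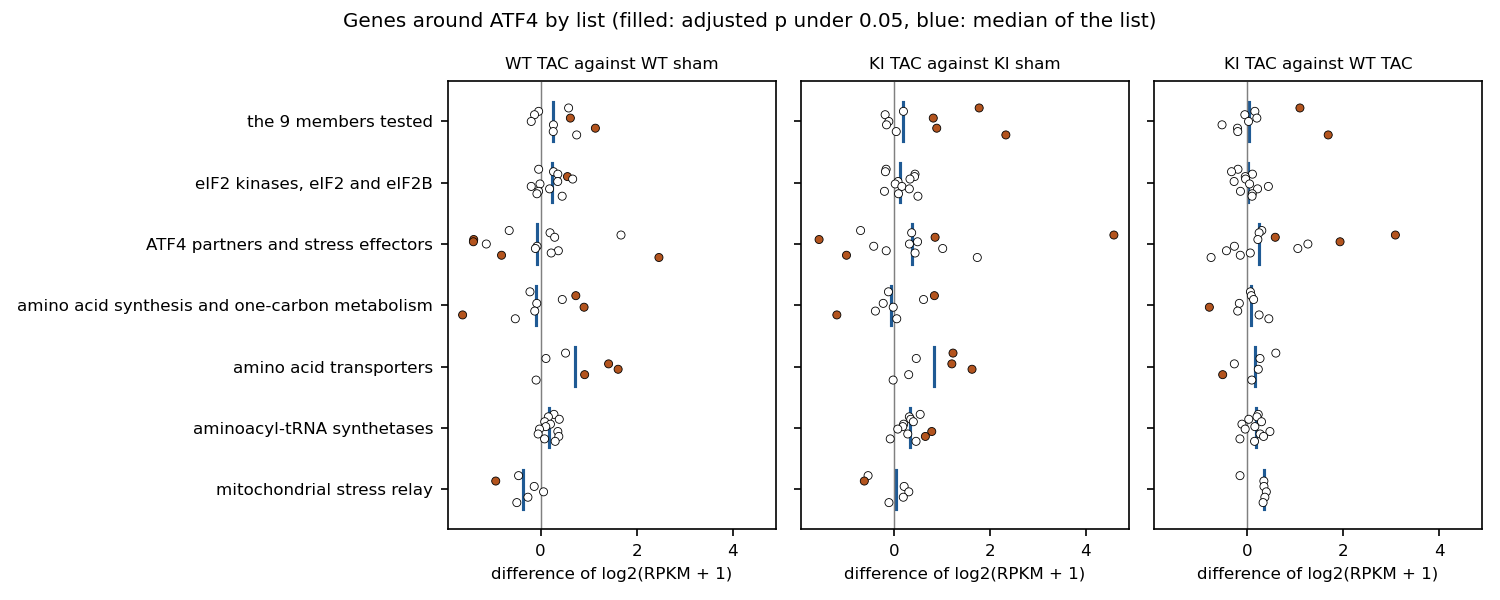
Difference of log2(RPKM + 1) for the 9 tested members and the tested genes of 6 lists around them in 3 comparisons; each point is a gene, filled where the limma adjusted p is under 0.05, and blue lines are medians. Of the 6 amino acid transporters, 3 are filled and to the right of 0 in each comparison of TAC with sham (medians of the list 0.72 and 0.84), and called genes in the list of ATF4 partners lie on both sides of 0.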

How the data were processed

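RNA of 12 mouse hearts, 3 in each of 4 groups, was analysed, with groups taken from the labels for genotype and treatment. Per the submitters' processing notes, the authors used Trimmomatic 0.39, HISAT2 2.2.1, HTSeq 0.6.1, edgeR 3.18.1, limma 3.32.10 and R 4.1.1, with the genome GRCm38. The labels describe a paired-end library that was sequenced as single reads. The deposited values fit RPKM made by the authors from read counts on genes: times exon length, each mouse sums to about the same total, and 95.9% to 97.9% of low values were whole multiples of 1 read within 0.1. Depth was read from these multiples. RPKM divides by the whole library, so abundant genes that change shift all the others. How the authors filtered genes is not given in the sources used here.

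A gene was tested if 3 or more mice reached 1 RPKM (11240 genes), and log2(RPKM + 1) was fitted with limma 3.58.1 (lmFit, eBayes with trend) in R 4.3.3 for 4 groups together, with Benjamini-Hochberg adjustment over all genes tested and a threshold of 0.05. The authors used edgeR, which models counts, and limma on a log scale took its place because the values are RPKM. With 3 mice against 3, an exact permutation test of a single gene cannot go below a two-sided p of 0.1, so none is given. The fit was tested on simulated data. Scaled to the whole library, as RPKM is, unchanged genes shifted against the changed ones, and the share of calls on unchanged genes exceeded the nominal rate in every run. Scaled to unchanged genes, that share was lower in every run, and closer to the nominal rate. The criterion, which the first scaling failed, was then set on the second. The calls given here rest on the first scaling, so meeting the criterion on the second does not check them. Counts of calls, shares of all genes called and calls of single genes can include calls on unchanged genes. Quantile and median-ratio scaling were the alternatives that bear on this. For single genes they were followed for the members only, and not for the genes of the lists or the markers. The alternatives changed the pseudocount to 0.1, dropped the filter, asked instead for 10 reads in each mouse (12987 genes), or used quantile normalization, median-ratio scaling, limma-voom on recovered reads, a fit of the groups compared, omission of each mouse, or a replicate block for sham mice.

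The 10 members and the lists were chosen with earlier results of these data known. Named were all members, at most 3 called genes per list and comparison by absolute log2 difference, marker genes where their list is given, and the 5 genes most correlated with Atf4 and with the members' mean. Of 13552 identifiers, 13546 were found in GENCODE M21. By that annotation, exons of Atf5, Ddit3, Eif2ak3 and Ppp1r15a share 12 to 485 bases with other genes, and the strand setting of the counting is not given in the sources used here. Of the 1713 exon bases of Ddit3, 105 are shared with another protein-coding entry of the same name and strand. The strand setting does not separate reads on those bases. Promoter windows were those of RefSeq on GRCm38.p6, and the first 20 bases after the start were found in a GENCODE transcript of the gene for 11 of the 12 windows, Trib3 being the exception. Tables and plots were made with Python 3.11.15, numpy 2.4.6, pandas 2.3.3 and matplotlib 3.10.9.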

Additional observations from a re-analysis of the deposited data

How the results depend on the processing

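Over 13 alternatives for each comparison of TAC with sham, the rises of Atf4, Ppp1r15a, Psat1 and Asns in KI hearts and of Psat1 in WT hearts kept their direction and passed each time, as did Ppp1r15a in KI TAC against WT TAC. Members higher in WT TAC against sham numbered 1 instead of 2 with quantile normalization, with median-ratio scaling, in the fit of those groups alone and without 1 of several mice (1 to 2 over left-out mice), through the loss of Asns. In KI TAC against WT TAC they numbered 1 instead of 2 in the fit of those groups alone (216 genes instead of 1242) and 1 to 2 over left-out mice, through the loss of Atf4. For the interaction, 0 to 1 members and 0 to 240 genes passed over left-out mice.

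Genes past the threshold over left-out mice numbered 596 to 1525 in WT TAC against sham, 1453 to 2741 in KI TAC against sham and 162 to 1822 in KI TAC against WT TAC. In KI sham against WT sham there were 2, and 1 with at least 10 reads in every mouse, 5 in the fit of the sham groups alone and 0 with the replicate block. Sham mice share the numbers 1, 2 and 3, but deviations of same-numbered mice correlated at -0.22, -0.30 and 0.44, so the numbers were not taken to pair them; 0 members passed with the block. No paired analysis was possible for the other comparisons because their groups share at most 1 number.

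Signs turned only for differences that passed in no setting. With quantile normalization these were Ddit3 in the interaction (0.11), in KI TAC against WT TAC (0.10) and between the sham groups (-0.014), Trib3 in KI TAC against sham (0.013) and Asns between the sham groups (-0.045). With median-ratio scaling they were Ddit3 in the interaction (0.081) and in KI TAC against WT TAC (0.081). Over left-out mice, log2 differences ran from -0.19 to 0.076 for Ddit3 and -0.20 to 0.33 for Trib3 in the interaction, -0.16 to 0.17 for Atf5 and -0.32 to 0.0020 for Trib3 in WT TAC against sham, -0.29 to 0.039 for Sesn2 and -0.39 to 0.14 for Trib3 in KI TAC against sham, and -0.18 to 0.069 for Ddit3 and -0.26 to 0.27 for Trib3 in KI TAC against WT TAC. Between the sham groups they ran from -0.074 to 0.13 for Asns, -0.20 to 0.14 for Atf5, -0.12 to 0.11 for Ddit3, -0.056 to 0.11 for Eif2ak3, -0.0086 to 0.29 for Ppp1r15a and -0.16 to 0.14 for Trib3. The causes were not tested.

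The pseudocount sets the size of the log2 differences of Asns and Psat1, which lie near 1 RPKM, and counts under about 100 reads per mouse limit Phgdh and the sham levels of Asns and Psat1.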
